A study of Mus musculus with 16 samples.

Results

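Mx1 and Mx2 are the mouse members of the myxovirus resistance family, large GTPases related to dynamin, and each was read here from the array row whose annotation carries that single symbol (rows 10441233 and 10437224). They are 2 of 19937 genes with a row of their own. The pair was chosen by its measured rise after irradiation in these same arrays, so the radiation response is given as a description without a test, and tests are kept for genotype, cell type and the differences between responses.

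In textbook accounts Mx genes are hardly transcribed at rest and are switched on when type I or type III interferon binds its receptor and signals to the nucleus. Mx proteins assemble into rings that block the replication of viruses, Mx1 in the nucleus and Mx2 in the cytoplasm. C57BL/6J mice, like most laboratory strains, carry defective alleles of both genes, and RefSeq (assembly GRCm38.p6) lists both as transcribed pseudogenes on chromosome 16. The values below are transcript levels and say nothing of protein. Whether either row also picks up transcripts of the other gene was not tested.

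The 16 Affymetrix arrays each held RNA from 1 pool of at least 3 C57BL/6J mice. Bone marrow was sorted into LSK cells (Lin-Sca1+c-Kit+), which include the blood stem cells, and myeloid progenitors (MP, Lin-Sca1-c-Kit+). Each population came from wild-type mice (WT) and from mice lacking the poly(ADP-ribose) polymerase Parp-2 (Parp-2-/-), either left unirradiated or taken 2.5 hours after 5 Gy of gamma rays. The 8 resulting groups had 2 pools each, labelled pool 1 and pool 2, and nothing in the labels ties the pools of different groups together or says more of the knockout allele. Whether the pools of a group were sorted or irradiated separately is not given in the sources used here, so the p-values measure the spread between these pools. In bulk RNA of this kind, fewer expressing cells and less RNA per cell cannot be told apart.

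Labels were checked first. Parp2 read 5.70 to 7.11 log2 units on the 8 Parp-2-/- arrays and 7.40 to 8.40 on the 8 WT arrays. Mdm2, which encodes the ubiquitin ligase that restrains p53, read 7.75 to 8.36 without and 9.95 to 10.28 after irradiation, and Ccng1, a p53-induced cyclin gene, 8.27 to 9.46 and 10.63 to 10.91. The sorted marker gene Kit read 8.62 to 9.46 on all arrays, and Ly6a, which encodes Sca1, had no single-symbol row. The stem cell marker list (10 measured genes) averaged 7.18 to 7.72 on LSK and 6.17 to 6.58 on MP arrays, and the myeloid progenitor list (10 genes) 6.51 to 6.88 and 8.21 to 8.61. Pools of 1 group correlated at 0.934 to 0.948 over all rows in LSK and at 0.979 to 0.985 in MP cells, so the LSK arrays were the noisier ones.

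Mx1 was low on every unirradiated array and higher on every irradiated one. In WT LSK cells it read 4.19 and 4.03 log2 units in the unirradiated pools and 5.76 and 5.97 in the irradiated pools. In Parp-2-/- LSK cells it read 4.38 and 4.23 without irradiation, against 5.88 and 6.08 with it. In neither genotype did the irradiated LSK pools overlap the unirradiated ones, and the pools of a group lay within about the same narrow band (pooled within-group SD 0.132 over the 8 groups).

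In WT MP cells Mx1 read 4.15 and 4.03 before and 6.68 and 6.85 after irradiation, the last pair being its highest values of all. In Parp-2-/- MP cells it read 4.09 and 3.89 before and 6.33 and 6.06 after. The highest unirradiated array of the whole series (4.38) therefore lay well below the lowest irradiated one (5.76).

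Mx2 showed the same separation with more spread between pools (pooled within-group SD 0.307). In WT LSK cells it read 3.999 and 4.34 without irradiation and 6.50 and 6.41 with it. In Parp-2-/- LSK cells it read 4.204 and 4.61 against 6.32 and 7.03. The irradiated Parp-2-/- pool 2 at 7.03 was its highest array. In WT MP cells Mx2 read 4.67 and 4.21 before and 6.48 and 6.56 after irradiation, and in Parp-2-/- MP cells 4.01 and 4.29 before and 6.00 and 6.65 after. The lowest irradiated array (6.00) was above the highest unirradiated array (4.67).

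**Figure D1:**
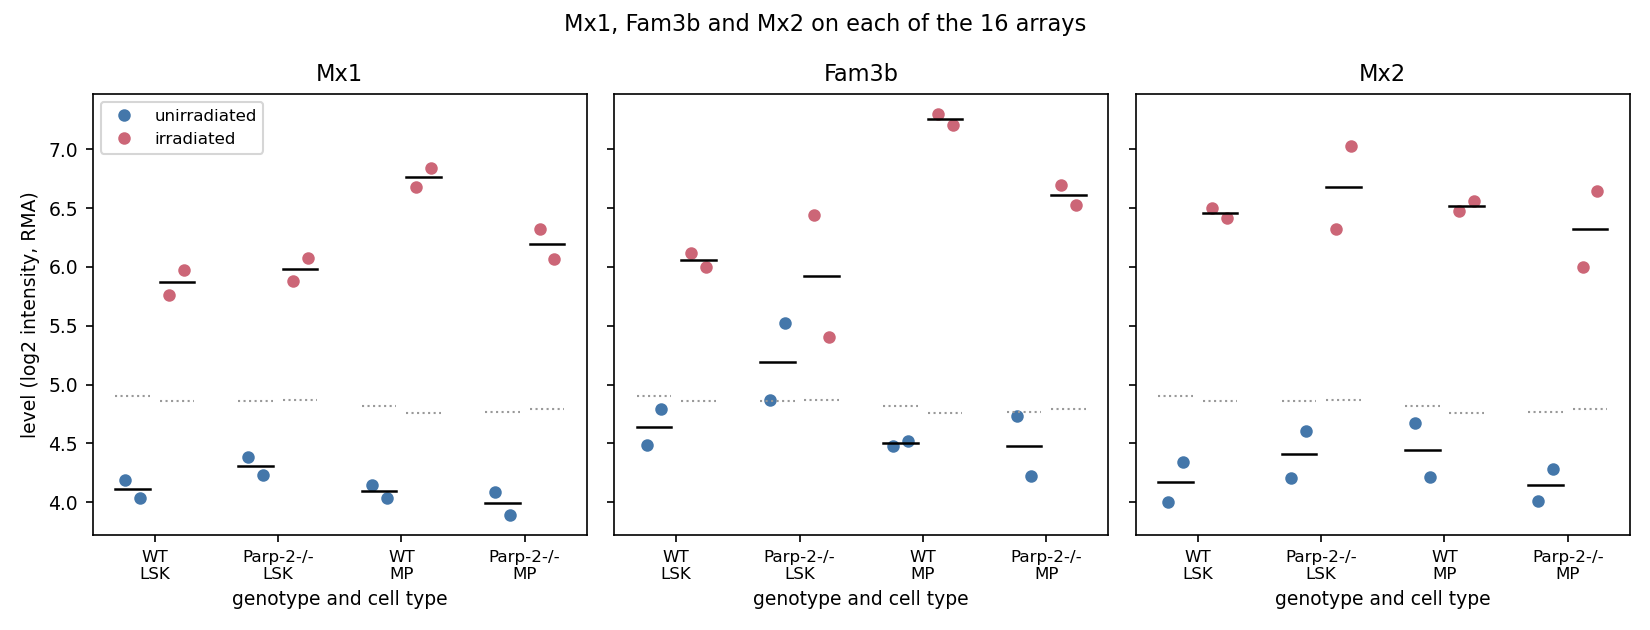
Level of Mx1, Fam3b and Mx2 (y axis, log2 intensity) on each array, by genotype and cell type (x axis). Points are single pools, black lines the mean of 2 pools and dotted grey lines the mean of the array medians. All 8 unirradiated points of Mx1 (3.89 to 4.38) and of Mx2 (at most 4.67) lie below the array medians, and all 8 irradiated points of each lie above them.

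Every one of the 8 unirradiated values of each gene lay below the median of its own array, a level not shown to be above background. Mx1 exceeded 30.9% to 39.7% of the rows on unirradiated arrays and 67.2% to 79.1% on irradiated arrays, and Mx2 31.8% to 47.6% and 69.0% to 82.7%. If the unirradiated levels are background, the responses below understate the change in transcript, while the choice of the genes by this rise can overstate it. No bound on the change in transcript is therefore set. Among all 22961 tested rows, 208 (0.906%) had every irradiated array above every unirradiated array, a separation for which these 2 genes had been chosen.

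Mx1 differed between irradiated and unirradiated pools by 1.76 ± 0.16 log2 units (standard error of the common fit, n = 2 pools a group), or 3.38-fold, in WT LSK cells and by 1.67 ± 0.16 (3.19-fold) in Parp-2-/- LSK cells. In MP cells the difference was 2.67 ± 0.16 (6.38-fold) for WT and 2.21 ± 0.16 (4.62-fold) for Parp-2-/-. Mx2 differed by 2.29 ± 0.27 (4.88-fold) in WT LSK cells and by 2.27 ± 0.27 (4.83-fold) in Parp-2-/- LSK cells. The corresponding Mx2 values in MP cells were 2.08 ± 0.27 (4.23-fold) for WT and 2.18 ± 0.27 (4.53-fold) for Parp-2-/-.

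By size of rise among the 22961 rows, Mx1 ranked 77 in WT LSK, 83 in Parp-2-/- LSK, 16 in WT MP and 22 in Parp-2-/- MP cells. Mx2 ranked 33, 30, 37 and 24 in the same order. These ranks describe the response that chose the genes.

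The order of group means put all 4 irradiated groups above all 4 unirradiated groups for both genes. For Mx1 the irradiated order was WT MP (6.76 ± 0.12, SD), Parp-2-/- MP (6.20 ± 0.19), Parp-2-/- LSK (5.98 ± 0.14) and WT LSK (5.87 ± 0.15). The WT MP pools stood clear of the next group, and the remaining neighbours in that order overlapped. The unirradiated Mx1 means ran from 4.31 ± 0.11 in Parp-2-/- LSK cells through 4.11 ± 0.11 in WT LSK and 4.09 ± 0.08 in WT MP to 3.99 ± 0.14 in Parp-2-/- MP cells. For Mx2 the irradiated means were 6.68 ± 0.50 (Parp-2-/- LSK), 6.52 ± 0.06 (WT MP), 6.46 ± 0.06 (WT LSK) and 6.32 ± 0.46 (Parp-2-/- MP), with no order beyond the spread of the pools.

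Neither gene had a called genotype difference, in a test that did not call the targeted gene itself: Parp2 differed by -1.26 to -1.62 between genotypes, with limma adjusted p from 0.101 to 1. Differences are Parp-2-/- minus WT, tested in limma with Benjamini-Hochberg adjustment over all 22961 rows, of which 0% were called in unirradiated LSK cells, 0.0174% in irradiated LSK cells, 0.00436% in unirradiated MP cells and 0.00871% in irradiated MP cells. Mx1 differed by 0.20 ± 0.16 in unirradiated LSK cells (95% interval -0.152 to 0.544, adjusted p = 0.76) and by 0.11 ± 0.16 in irradiated LSK cells (-0.237 to 0.459, adjusted p = 0.873). In MP cells it differed by -0.10 ± 0.16 without irradiation (-0.450 to 0.247, adjusted p = 1). In irradiated MP cells both Parp-2-/- pools lay below both WT pools (6.33 and 6.06 against 6.68 and 6.85), a separation whose share over all rows was not counted. The difference of -0.57 ± 0.16 (-0.916 to -0.220) had an unadjusted p of 0.00389 in limma that did not survive adjustment (adjusted p = 1). It was the only 1 of the 8 genotype comparisons of these genes with an unadjusted p under 0.05.

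Mx2 differed between genotypes by 0.24 ± 0.27 in unirradiated and 0.22 ± 0.27 in irradiated LSK cells, and by -0.29 ± 0.27 and -0.20 ± 0.27 in MP cells (limma adjusted p = 0.846, 0.85, 1 and 1). The intervals reached from -0.890 at the lowest to 0.834 at the highest, and a difference inside them was not detectable with 2 pools a group. Pooled over the 4 combinations of cell type and irradiation, the genotype difference was -0.09 for Mx1 and -0.01 for Mx2 (exact two-sided permutation test within combinations, which can give no p below 0.00154, adjusted p = 0.802 and 0.954 over 4 such tests), with the pooled direction in 2 of 4 combinations for each gene.

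The response itself did not pass the test for a difference between genotypes. The response in Parp-2-/- minus that in WT was -0.08 ± 0.23 for Mx1 and -0.01 ± 0.39 for Mx2 in LSK cells (limma adjusted p = 0.942 and 0.996), where 0.00871% of rows were called. In MP cells it was -0.47 ± 0.23 for Mx1 (95% interval -0.959 to 0.026) and 0.10 ± 0.39 for Mx2 (limma adjusted p = 1 for both), where 0% were called.

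Between the cell types, only irradiated WT cells gave a called difference. Mx1 was 0.89 ± 0.16 log2 units lower in irradiated WT LSK than in irradiated WT MP cells, 5.87 against 6.76 (LSK minus MP -0.89, limma adjusted p = 0.0167, 2.45% of all rows called). The 2 LSK pools lay below both MP pools, which can readily happen with 2 pools against 2 and whose share over all rows was not counted. The call was lost with the 8 WT arrays fitted alone (adjusted p = 0.0534), and also without WT LSK irradiated pool 1 (adjusted p = 0.0742), without WT MP irradiated pool 1 (0.105) or without WT MP irradiated pool 2 (0.182), while the difference stayed between -1.001 and -0.79 over all 16 fits with 1 array left out.

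The same Mx1 comparison gave -0.22 ± 0.16 in irradiated Parp-2-/- cells (limma adjusted p = 0.454, 4.07% of rows called). Without irradiation it gave 0.02 ± 0.16 in WT (adjusted p = 0.95, 5.23% called) and 0.32 ± 0.16 in Parp-2-/- cells (adjusted p = 0.318, 3.34% called). Mx2 differed between LSK and MP cells by -0.27 ± 0.27 and 0.26 ± 0.27 in unirradiated WT and Parp-2-/- cells and by -0.06 ± 0.27 and 0.35 ± 0.27 in irradiated ones (limma adjusted p = 0.568, 0.642, 0.9 and 0.473). Pooled over genotype and irradiation, the cell type difference was -0.19 for Mx1 and 0.07 for Mx2 (exact permutation test, adjusted p = 0.802 and 0.883).

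The Mx1 response in LSK cells minus that in MP cells was -0.91 ± 0.23 in WT (95% interval -1.41 to -0.42, unadjusted p = 0.00157 in limma) and -0.53 ± 0.23 in Parp-2-/- cells (-1.03 to -0.04, unadjusted p = 0.0362 in limma). Neither passed the adjustment over all rows (adjusted p = 0.602 and 0.891), and 0% of rows did so in either comparison. For Mx2 these differences were 0.21 ± 0.39 (-0.637 to 1.05) and 0.09 ± 0.39 (-0.749 to 0.939), with adjusted p = 0.994 and 0.999. All these differences use the same pools as the responses that chose the genes. Unirradiated levels were not shown to be above background. Neither the size nor the direction of a difference between responses in transcript is therefore set by these values, and they describe array signal.

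**Figure D2:**
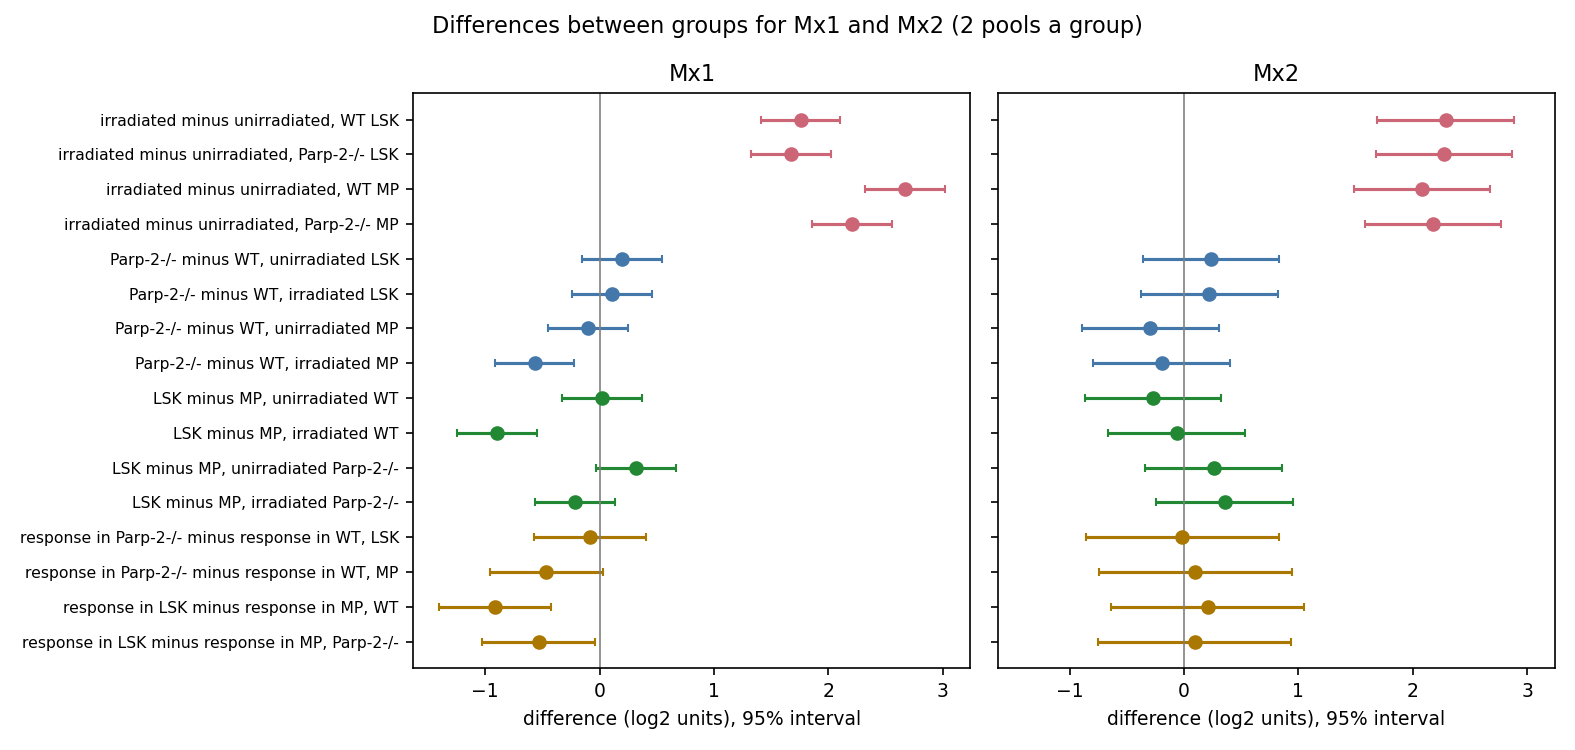
Differences between groups for Mx1 and Mx2 (x axis, log2 units, with 95% intervals of the common fit; 2 pools a group), 1 comparison a line. The radiation responses (top 4 lines) lie between 1.67 and 2.67, and among the other lines Mx1 in irradiated WT cells (LSK minus MP, -0.89) is the one that passed the adjusted test.

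Fam3b, the gene lying between Mx1 and Mx2, was called higher in 3 of the 4 responses. RefSeq orders chromosome 16 as Bace2, Mx1, Fam3b, Mx2 and Tmprss2. Fam3b encodes a secreted cytokine-like protein best known from pancreatic islets, and the 1 further gene between Mx1 and Mx2, the pseudogene Gm9242, had no row of its own. In WT MP cells Fam3b read 4.48 and 4.52 without irradiation and 7.30 and 7.21 with it, and in Parp-2-/- MP cells 4.74 and 4.22 against 6.70 and 6.53. In both genotypes of MP cells the groups were far apart, with rises of 2.76 ± 0.30 (6.76-fold, limma adjusted p = 0.000868) and 2.13 ± 0.30 (4.39-fold, adjusted p = 0.00593).

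In WT LSK cells Fam3b read 4.49 and 4.79 before and 6.12 and 6.00 after irradiation, a rise of 1.42 ± 0.30 (limma adjusted p = 0.0384). In Parp-2-/- LSK cells it read 4.87 and 5.52 against 6.44 and 5.40, so the groups overlapped. The difference there was 0.73 ± 0.30 (95% interval 0.071 to 1.387, limma unadjusted p = 0.0326, adjusted p = 0.355). The Fam3b response in Parp-2-/- minus that in WT LSK cells was -0.69 ± 0.43 (limma adjusted p = 0.656), so a genotype difference was not called. The WT LSK call held in 6 of 16 fits with 1 array left out and was lost with the LSK arrays fitted alone (adjusted p = 0.253), whereas the WT MP call held in all 16. The Parp-2-/- MP call held in 13, and was lost without Parp-2-/- MP unirradiated pool 2 (adjusted p = 0.0911), irradiated pool 1 (0.0772) or irradiated pool 2 (0.0607). The Fam3b response in LSK minus that in MP cells was -1.34 ± 0.43 in WT (limma adjusted p = 0.761) and -1.40 ± 0.43 in Parp-2-/- cells (adjusted p = 0.672), which did not pass the test.

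None of the other 14 measured genes of the neighbour list was called. Their differences ranged from -0.56 to 0.37 in WT LSK, -1.18 (Psmg1) to 0.30 in Parp-2-/- LSK, -0.62 to 0.25 in WT MP and -0.37 to 0.21 in Parp-2-/- MP cells, with a lowest limma adjusted p of 0.239, 0.189, 1 and 0.9. Bace2 and Tmprss2, the immediate outer neighbours, were among them. Of the 15 neighbours with Fam3b, 1 was called higher in WT LSK, 0 in Parp-2-/- LSK, 1 in WT MP and 1 in Parp-2-/- MP cells, against 1.18%, 0.727%, 0.571% and 0.505% of all rows called higher (0.623%, 0.74%, 0.1% and 0.0827% were called lower, and 0 of the 15). Counted at an unadjusted p under 0.05, 2, 1, 1 and 1 were higher and 2, 2, 0 and 0 lower, where 7.26%, 5.24%, 3.66% and 3.07% of all rows were higher and 7.43%, 6.55%, 2.57% and 2.69% lower.

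**Figure D3:**
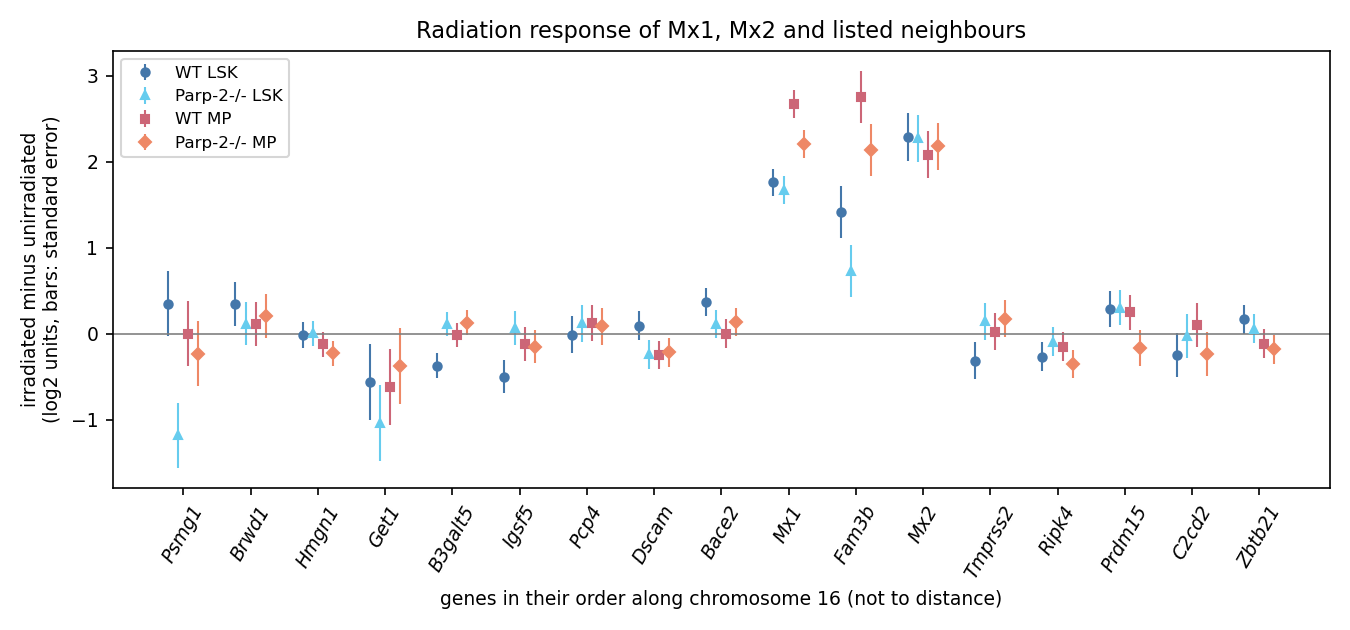
Radiation response (y axis, irradiated minus unirradiated in log2 units, bars are standard errors) of Mx1, Mx2 and 15 listed genes in their order along chromosome 16 (x axis, not to distance), in the 4 combinations of genotype and cell type. Mx1, Fam3b and Mx2 stand above their neighbours, with Fam3b at 2.76 in WT MP and 0.73 in Parp-2-/- LSK cells.

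Few other interferon-stimulated genes passed the test for a rise, although their share was above that of all rows. Of the measured listed genes 2.9% to 8.7% did so over the 4 responses, beside 0.505% to 1.18% of all rows. Of 82 listed genes 69 had a single-symbol row (9 of the others, among them Isg15, lay on rows with several symbols). In WT LSK cells 6 of 69 (8.7%) were called higher and 0 lower, beside 1.18% of all rows called higher. These were Cxcl10, a chemokine gene (2.64 ± 0.57), Ifit1, whose protein binds viral RNA (1.81 ± 0.41), Parp14 (1.47 ± 0.25), the oligoadenylate synthetase family genes Oas1b (1.32 ± 0.30) and Oas2 (0.80 ± 0.18), and Ifi35 (0.79 ± 0.17). Their limma adjusted p ran from 0.0117 for Parp14 to 0.0492 for Oas1b, and with 1 array left out the call of Parp14 held in 15 of 16 fits, but those of Ifi35 in 10, Cxcl10 in 9, Oas2 in 4, Ifit1 in 3 and Oas1b in 2.

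In Parp-2-/- LSK cells 3 (4.35%, all rows 0.727%) were called higher, namely Cxcl10 (3.47 ± 0.57), the immunity-related GTPase gene Iigp1 (1.47 ± 0.25) and the peptide transporter gene Tap1 (1.32 ± 0.25). In WT MP cells the 2 called (2.9%, all rows 0.571%) were Rtp4 (2.05 ± 0.41) and the Schlafen family gene Slfn8 (1.67 ± 0.17), and in Parp-2-/- MP cells Tap1 (1.25 ± 0.25) and Slfn8 (1.09 ± 0.17; all rows 0.505%). With 1 array left out, the calls of Cxcl10, Iigp1 and Tap1 in Parp-2-/- LSK cells held in 16, 15 and 13 of 16 fits, those of Slfn8 and Rtp4 in WT MP cells in 16 and 7, and those of Slfn8 and Tap1 in Parp-2-/- MP cells in 13 and 4 (Tap1 there also in 2 of 7 other settings). None of the 69 was called in all 4 responses, and the share of all rows called in all 4 was not counted. Mx1 and Mx2 were not put to this test. Of the called genes, Parp14, Tap1, Ifit1 and Iigp1 were higher at an unadjusted p under 0.05 in limma in every response. Cxcl10, Oas1b, Oas2, Ifi35, Rtp4 and Slfn8 were not. At an unadjusted p under 0.05 in limma, 23, 12, 26 and 14 of the 69 were higher and 4, 5, 0 and 0 lower, in WT LSK, Parp-2-/- LSK, WT MP and Parp-2-/- MP cells. Of all rows 7.26%, 5.24%, 3.66% and 3.07% were higher at that threshold and 7.43%, 6.55%, 2.57% and 2.69% lower.

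With each cell type fitted alone, so that LSK and MP arrays no longer shared 1 estimate of spread, 0 were called in WT LSK and 0 in Parp-2-/- LSK cells, and 9 in WT MP and 6 in Parp-2-/- MP cells. The counts over all rows, called in either direction, moved the same way. They went from 413 to 35, 337 to 51, 154 to 390 and 135 to 365 in the same order. The median difference of the 69 genes was 0.37, 0.11, 0.34 and 0.22 in the same 4 responses, where the median of all rows lay between -0.04 and 0.00, and 52, 40, 61 and 55 of the 69 were above 0. In MP cells the largest listed value was 2.05 in WT and 1.25 in Parp-2-/- cells, below both Mx genes, which were chosen by this response, although Rtp4 and Mx2 in WT MP cells differed by less than their standard errors. In LSK cells the Cxcl10 value exceeded those of both.

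**Figure D4:**
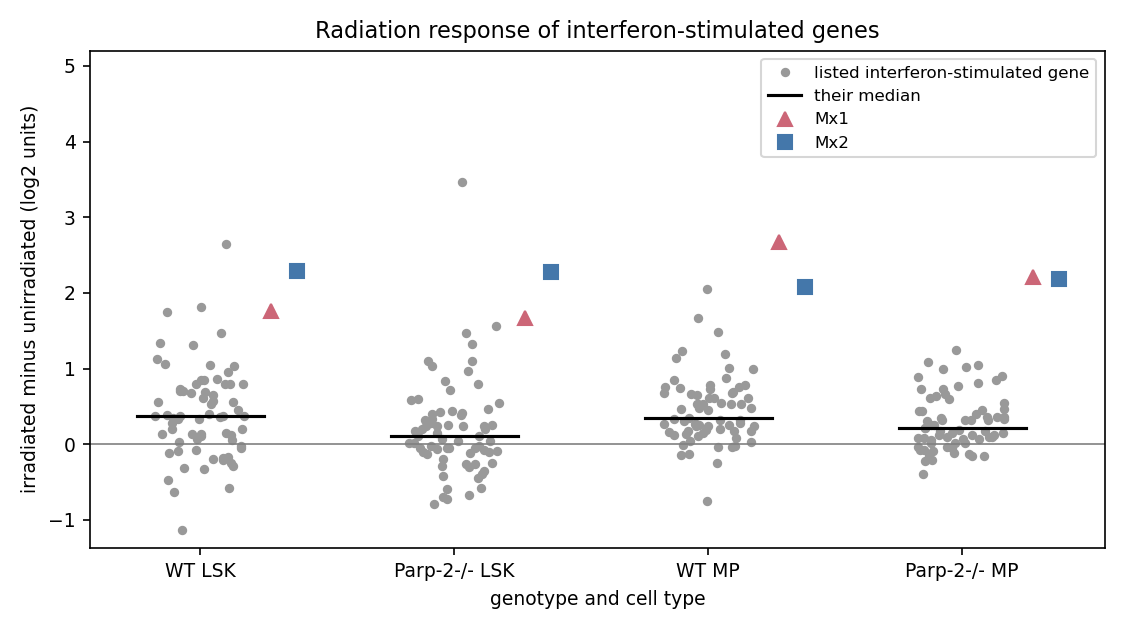
Radiation response (y axis, irradiated minus unirradiated in log2 units) of 69 listed interferon-stimulated genes (grey points, median as a black line) beside Mx1 and Mx2, by genotype and cell type (x axis). The medians are 0.37, 0.11, 0.34 and 0.22. The Mx genes were chosen by this response, and Mx2 (2.08) and Rtp4 (2.05) in WT MP cells differ by less than their standard errors.

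No listed gene upstream in the interferon pathway passed the test, as few rows of any kind did. Of 15 measured ligand genes, 18 receptor and signalling genes, 11 interferon regulatory factor genes and 23 nucleic acid sensing genes, 0 were called in any of the 4 responses in limma. Of all rows 0.505% to 1.18% were called higher and 0.0827% to 0.74% lower. Lists of this size would mostly give 0 at such shares, so the count is little informative. At an unadjusted p under 0.05, 0 or 1 ligand, 1 to 3 signalling, 1 or 2 regulatory factor and 1 to 4 sensing genes were higher, and up to 4 were lower. Of all rows 3.07% to 7.26% were higher and 2.57% to 7.43% lower at that threshold. Some counts were above these shares, as with 4 of 23 sensing genes higher in WT MP cells (all rows 3.66%). In Parp-2-/- LSK cells 3 of 18 signalling genes were higher (all rows 5.24%) and 4 lower (6.55%). On the interferon-stimulated list too are 3 signalling, 3 regulatory factor and 7 sensing genes. Ifnb1, which encodes interferon beta, differed by 0.05 ± 0.16 in WT LSK, -0.12 ± 0.16 in Parp-2-/- LSK, -0.04 ± 0.16 in WT MP and 0.09 ± 0.16 in Parp-2-/- MP cells.

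The receptor subunit genes Ifnar1 and Ifnar2 gave 0.16 ± 0.29 and -0.54 ± 0.26 in WT LSK and -0.12 ± 0.29 and 0.08 ± 0.26 in WT MP cells. Stat2, a transcription factor gene of the pathway, gave 0.70 ± 0.26, -0.58 ± 0.26, -0.04 ± 0.26 and 0.09 ± 0.26 in WT LSK, Parp-2-/- LSK, WT MP and Parp-2-/- MP cells, and Irf9, another, 0.65 ± 0.42, 0.25 ± 0.42, 0.25 ± 0.42 and 0.01 ± 0.42. Irf7, the factor that amplifies interferon production, gave -0.63 ± 0.24, 0.79 ± 0.24, 0.53 ± 0.24 and 0.85 ± 0.24, and Irf1 between -0.25 and 0.08. None of these had a limma adjusted p under 0.05 (lowest 0.169, Irf7 in Parp-2-/- LSK cells).

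Dynamin relatives outside the Mx family gave small differences. Of 9 measured genes for dynamins, mitofusins, atlastins and Opa1, which cut, fuse or shape membranes, 0 were called in limma, a count that 0.505% to 1.18% of all rows called higher would also give, and their differences lay between -0.42 and 0.50 in all 4 responses (1 of 9 higher at an unadjusted p under 0.05 in WT LSK cells and 0 in the other 3).

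The rows most like Mx1 and Mx2 across the 16 arrays were also rows that differed between irradiated and unirradiated pools. Likeness was the Pearson correlation of log2 levels over all 16 arrays, which fall into the same 8 groups, so it is given as a description and carries the same irradiation contrast that chose the Mx genes. Closest to Mx1 were the death receptor gene Fas (r = 0.978), Kank3 (0.977), Arap2 (0.973), Mdm2 (0.970), Tnfsf4, which encodes OX40 ligand (0.966), the p53-induced gene Trp53inp1 (0.963), the TRAIL receptor gene Tnfrsf10b (0.963) and Pidd1, of the p53-induced death domain protein (0.961). Closest to Mx2 were Inka2 (0.979), the ephrin receptor gene Epha2 (0.971), Mdm2 (0.969), Ccdc122 (0.968), Tnfsf4 (0.968), Polk, of a translesion polymerase (0.962), the transcription factor gene Mybl1 (0.961) and Ctc1, of the telomere-binding CST complex (0.958). Mdm2 and Tnfsf4 were on both lists.

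Mx1 and Mx2 correlated with each other at 0.941, which placed Mx2 at rank 27 among the 21639 other single-symbol rows for Mx1, and Mx1 at rank 21 for Mx2. The 14 genes of both lists differed between irradiated and unirradiated pools by 0.78 to 4.25 in WT LSK, 0.65 to 3.97 in Parp-2-/- LSK, 0.94 to 4.73 in WT MP and 0.97 to 3.99 in Parp-2-/- MP cells. The 69 listed interferon-stimulated genes had a median r of 0.363 with Mx1 and 0.362 with Mx2, where all single-symbol rows had -0.078 and -0.043. The highest among the 69, named after its value was seen, was Gbp3 for Mx1 (0.864, rank 129) and Trim30a for Mx2 (0.914, rank 57). Fam3b correlated at 0.933 with Mx1 and 0.831 with Mx2.

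Markers of other cell types were read on the same arrays. Of 5 B cell, 8 T and NK cell, 8 macrophage and monocyte, 9 neutrophil, 9 dendritic cell, 3 mature erythroid and 8 endothelial and stromal genes, 0 were called in any response in limma, where at most 1.18% of all rows were called in 1 direction, so that lists of this size are little informative. At an unadjusted p under 0.05 in limma no list had more than 2 higher or 2 lower, but the lists are short. Among these were 2 of 5 B cell genes lower in WT LSK cells, where 7.43% of all rows were lower. In MP cells 1 of 3 erythroid genes was lower in each genotype (all rows 2.57% in WT and 2.69% in Parp-2-/-). Of the 9 neutrophil genes 2 were higher in WT MP cells (all rows 3.66%). The mean level of the dendritic cell list, which holds markers of the interferon-producing plasmacytoid type, ran from 4.58 to 5.36 on unirradiated and 4.59 to 5.26 on irradiated arrays, and that of the macrophage list from 4.75 to 5.33 and 4.76 to 5.31. The B cell list ran from 3.86 to 4.61 and 3.84 to 4.12, the T and NK cell list from 3.63 to 4.03 and 3.5 to 3.95, the neutrophil list from 3.91 to 4.43 and 4.05 to 4.59, the erythroid list from 4.75 to 6.28 and 4.75 to 5.93, and the endothelial list from 4.39 to 5.09 and 4.52 to 5.03. Over all groups the unirradiated and irradiated ranges overlapped for each of these lists. Within a genotype and cell type they did not always: of 28 such comparisons of a list's mean, both irradiated pools lay below both unirradiated pools in 10, above them in 3 and among them in 15. With 2 pools against 2, such separation can readily arise without any difference, and its share over all rows was not counted. In WT LSK cells the dendritic cell list read 5.18 to 5.36 without and 4.94 to 5.12 with irradiation, with 1 of 9 genes above 0, and the B cell, T and NK cell and endothelial lists were also lower. In WT MP cells the erythroid list (5.8 to 6.28 against 5.24 to 5.28), the T and NK cell list (3.7 to 3.82 against 3.5 to 3.58, 0 of 8 genes above 0) and the B cell list were lower, and the neutrophil list was higher (4.27 to 4.43 against 4.44 to 4.59). In Parp-2-/- LSK cells the B cell list was lower and the dendritic cell list higher, and in Parp-2-/- MP cells the T and NK cell and erythroid lists were lower and the neutrophil list higher. The stem cell and myeloid progenitor lists used to check the sort are not among the 28. After irradiation the stem cell list was lower in WT LSK cells (7.64 to 7.72 against 7.18 to 7.42). It was also lower in Parp-2-/- LSK cells (7.54 to 7.59 against 7.19 to 7.29) and overlapped in both MP groups. The myeloid progenitor list was lower in WT MP (8.42 to 8.61 against 8.36 to 8.37) and in Parp-2-/- MP cells. In Parp-2-/- LSK cells it was higher, and in WT LSK cells it overlapped. The part of all these shifts in the Mx values was not tested. Below the array median on all 16 arrays were 3 of the 5 B cell, 6 of the 8 T and NK cell and 1 of the 8 macrophage genes. The same held for 4 of the 9 neutrophil, 4 of the 9 dendritic cell, 0 of the 3 erythroid and 4 of the 8 endothelial genes. Among the progenitor markers used to check the sort, Elane, of neutrophil elastase, was called higher in Parp-2-/- LSK cells (1.63, limma adjusted p = 0.041), a call that held in 3 of 7 other settings and 6 of 16 fits with 1 array left out, and its part in the Mx values was not tested.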

How the data were processed

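Each array has 1 column of log2 intensities per array row (transcript cluster), as deposited by the authors. Their processing notes list the RMA method, limma, affy 2.10 and R 2.15, with no role or order given, and do not say in the sources used here which arrays were normalised together. Columns had medians of 4.74 to 4.92, as log2 values would. Values were used as deposited. Of 34760 rows, 22961 with a symbol in the platform annotation were tested, 21640 of them with 1 symbol.

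A linear model of 8 group means was fitted in limma 3.58.1 (R 4.3.3; eBayes, 8 residual and 4.35 prior degrees of freedom), with two-sided tests, Benjamini-Hochberg adjustment within each of 16 comparisons and a threshold of 0.05. The fit was tested on simulated data with the same spread in all 8 groups, whereas the LSK arrays here were the noisier ones. Only 16 arrays limit the precision: the median standard error was 0.207 for a pair of groups and 0.292 for a difference of responses.

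List genes were read from the single-symbol row with the highest mean, except that Tmem173 was found by its Entrez identifier under its present symbol, Sting1. Of 17 listed neighbours, Umodl1 was left out because RefSeq places it on another chromosome, and Wrb is an older name of Get1. Named are the 2 genes, the 8 single-symbol rows most correlated with each (without predicted, small RNA, olfactory and vomeronasal genes), up to 6 called interferon-stimulated genes per response, called genes of the pathway, dynamin and neighbour lists, the label checks and preset ligand, receptor and regulator genes. Members and lists were chosen with earlier results of these data known. Of the list names, 3 receptor and signalling, 3 regulatory factor and 7 sensing genes are also on the interferon-stimulated list. Alternatives were a repeated quantile normalisation, median centring, fits by cell type or genotype, a filter on low rows, all rows, a pool block, other variance settings and leaving out each array.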

Additional observations from a re-analysis of the deposited data

How the results depend on the processing

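The direction of each radiation response of Mx1 and Mx2 held under every setting tried. Leaving out 1 array moved the Mx2 response most, to 1.92 to 2.63 in Parp-2-/- LSK and 1.85 to 2.50 in Parp-2-/- MP cells. The Mx1 difference between irradiated WT LSK and MP cells lost its call with the WT arrays alone (-0.89, adjusted p = 0.0534) and in 3 of 16 fits with 1 array left out (range -1.001 to -0.79). No other member comparison changed its side of the threshold.

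Counts of interferon-stimulated genes called higher were less stable. For WT LSK (6) they became 0 with the cell type alone and 1 with all rows tested, for Parp-2-/- LSK (3) 0 with the cell type alone, for WT MP (2) 9 with the cell type alone and 1 with quantile normalisation or all rows, and for Parp-2-/- MP (2) 6 with the cell type alone and 1 with quantile normalisation, centring, all rows, the pool block or trended robust variances. With 1 array left out they ranged from 0 to 7, 1 to 4, 1 to 3 and 0 to 2. Neighbour genes called higher in WT LSK cells fell from 1 to 0 with the cell type alone and with all rows, and ranged from 0 to 1 with 1 array left out in every response except WT MP (1 in all fits). All rows called numbered 413, 337, 154 and 135, with each cell type alone 35, 51, 390 and 365, and with all rows tested 258, 201, 79 and 71. Of the 8 genes most like Mx2, 5 stayed after quantile normalisation, and 6 to 8 for either gene with 1 array left out.

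No strong pairing by pool number was seen: deviations of same-numbered pools correlated between -0.173 and 0.227 over 28 pairs of groups (2 above 0.1). Such a check cannot show whether pools shared a sort or an irradiation. With the pool number as a replicate block, the counts of all rows called were 390, 325, 168 and 130. The block changed no Mx1 or Mx2 call. Unirradiated Mx1 and Mx2 lay below the array medians, so background signal may limit their fold changes, and 2 pools a group limit the smaller differences.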
